A study of Bombyx mori with 2 samples.

Results

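Cuticle proteins and chitin make up much of the insect cuticle, which the epidermis secretes anew at each molt. Many carry the Rebers and Riddiford chitin-binding consensus, of which the RR1 form is found mostly in soft cuticle and the RR2 form mostly in hard cuticle. Glycine-rich cuticle proteins generally lack this consensus and are built largely from short repeats. Larval cuticle proteins such as LCP-22 and LCP-12 are components of the larval body wall of the silkworm.

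Variant sites, that is, positions where RNA-Seq reads differed from the SilkDB reference genome, were examined in 8 cuticle protein genes of Bombyx mori. The genes were larval cuticle proteins LCP-22 (BGIBMGA000332) and LCP-12 (BGIBMGA002548), the glycine-rich proteins BGIBMGA008212 and BGIBMGA002385, the RR1 proteins BGIBMGA001444 and BGIBMGA000371, the RR2 protein BGIBMGA000274 and the hypothetical cuticle protein BGIBMGA008254. They were chosen by the ratio of RPKM values between the libraries, 6 as higher in q-lp and 2 (BGIBMGA001444 and BGIBMGA000274) as lower, and because variant sites were listed in them. Those RPKM values are not given here. Of 13 cuticle protein genes named for such a difference, the 8 held sites, while no site was listed in BGIBMGA003728, BGIBMGA005303, BGIBMGA002384, BGIBMGA002549 and BGIBMGA012213. That sites were found in the 8 genes is therefore not a result.

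RNA came from the epidermis of 4th instar larvae taken 6 hours after molting, with 1 library of the plain wildtype strain 932VR and 1 library of q-lp, a purple quail-like pigment mutant that arose from 932VR and was kept by inbreeding. Each library was a pool of 3 silkworms, and there were no replicate libraries. The tables are named for both strains and give a single value per site, from which it was inferred that the 2 libraries were pooled. How they were merged is not given in the sources used here. No value below can be assigned to 932VR or to q-lp, and no difference between them could be tested. The tables hold no expression level, and markers of the epidermis were not checked.

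The 8 genes held 33 of the 47044 listed sites, and they were 8 of the 6641 genes with a site. Of the 33 sites, 31 were single-base variants and 2 were insertions. A site is described below by its coverage, the number of reads counted at it, and by its alternative share, the percent of those reads that carried the base or allele differing from the reference. The number of reads at a site depends on the RNA present, and in these bulk samples fewer cells and less RNA per cell cannot be told apart. At least 2 reads with the alternative base stood behind every listed site, and the largest coverage was 100 reads. Whether sites of deeper coverage were left out by a filter is not given in the sources used here. If they were, the coverage ranks, the sites per kb and the genes without a listed site would all depend on it. This was not tested.

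The longest change in the 8 genes was an insertion in the glycine-rich gene BGIBMGA002385 on Bm_scaf14, listed at Bm_scaf14:5108082-5108114 of the SilkDB scaffolds. It is shown because it adds 1 copy of a repeat inside a gene of the repeat-rich class. Capitals mark the copies of the repeat unit, 2 in the reference allele of 33 bases and 3 in the alternative allele of 48 bases, both written as the scaffold reads.
reference allele: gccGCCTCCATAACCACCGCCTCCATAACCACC
alternative allele: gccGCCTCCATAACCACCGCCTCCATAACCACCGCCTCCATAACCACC
On the opposite strand the unit of 15 bases reads GGTGGTTATGGAGGC. The strand of the gene and the reading frame are not given in the sources used here. The inserted length is a multiple of 3. All 7 reads at this site carried the longer allele (alternative share 100%, exact 95% confidence interval 59.0% to 100%).

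Insertions of this length were rare in the tables. Among 1470 indels with a single alternative allele, 8 were insertions of 15 bases or more, and the longest insertion had 30 bases. The length changed by a multiple of 3 in 171 of these indels (11.6%). In the cuticle protein genes it was so for 9 of 27 indels (33.3%), and these shares are given without a test. The 9 include the insertion shown above and the indels at 1415758, 1415911 and 1416697, which all lie in the single gene BGIBMGA000388. Indels of a gene are not independent of each other. The other insertion in the 8 genes added 1 base to LCP-12 and is described with that gene.

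BGIBMGA002385 (Bm_scaf14, 5107224 to 5108516) was the most deeply covered of the 8 genes. Positions within a gene are counted from 1 at the start listed for it, with the reference base first and the alternative base last. The single-base variants were G268A with 85 reads, G277A with 86 reads, T472C with 92 reads, T490C with 89 reads, G799A with 73 reads and C835T with 43 reads. The coverage was lower toward the insertion, which lies 24 bases after C835T. All 6 single-base variants were transitions, and no read at any of the 7 sites carried the reference allele. At T472C, with 0 reference reads of 92, the exact 95% confidence interval of the alternative share was 96.1% to 100%. The median coverage of 85 reads was higher than that of 99.5% of all genes with sites.

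BGIBMGA008212 (Bm_scaf254, 42929 to 43797), the other glycine-rich gene, held T404G with 22 reads and T832G with 11 reads. Both changes were transversions. All reads carried the alternative base, with exact 95% confidence intervals of 84.6% to 100% and 71.5% to 100%. With 2 sites in 869 bp it had 2.30 sites per kb, against 5.41 sites per kb in BGIBMGA002385. The exact Poisson 95% confidence intervals were 0.279 to 8.31 and 2.18 to 11.2 sites per kb and overlapped. They cover counting error only, as do all intervals given here, and the span of a gene includes any introns.

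LCP-22 (BGIBMGA000332, Bm_scaf18, 611711 to 612843) held 8 single-base variants in 1133 bp, or 7.06 sites per kb (exact Poisson 95% confidence interval 3.05 to 13.9). The density was lower in 94.2% of all genes with sites. Near the listed start, G108T and T134C had 2 reads each. In the middle, G417A, A426G and G432A lay within 16 bases of each other and had 7, 4 and 3 reads, and T528A had 12 reads. Near the listed end, T926A had 81 reads and T974C had 59 reads. The coverage of LCP-22 thus ranged from 2 to 81 reads with a median of 5.5, and the 2 deepest sites lay in the last part of the gene. All 170 reads counted over the 8 sites carried the alternative base, although a read that spans neighbouring sites is counted at each. At T926A the exact 95% confidence interval of the alternative share was 95.5% to 100%. LCP22 is listed in RefSeq as another name of CPR38, a match by name only, and no other gene of the 8 was matched there.

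LCP-12 (BGIBMGA002548, Bm_scaf14, 5814710 to 5816026) also held 8 sites, 6.07 sites per kb (exact Poisson 95% confidence interval 2.62 to 12.0). Coverage was 3 reads at T249C, 4 at C271T and 7 at the insertion of 1 base at position 462. It was 10 reads at T682C, 17 at T735G, 15 at T839A, 23 at C951G and 25 at C1075G. As in LCP-22, the sites near the listed start were the shallow ones. LCP-12 was the only one of the 8 genes with reference reads. They made up 1 of 7 reads at the insertion, 1 of 10 at T682C, 2 of 17 at T735G and 2 of 25 at C1075G, so that the alternative shares were 85.7%, 90%, 88.2% and 92.0%. The exact 95% confidence intervals of these shares ran from 42.1% to 99.6%, from 55.5% to 99.7%, from 63.6% to 98.5% and from 74.0% to 99.0%. At the other 4 sites no read carried the reference base. Over all sites of LCP-12, 6 of 104 reads (5.77%) were reference reads.

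**Figure D1:**
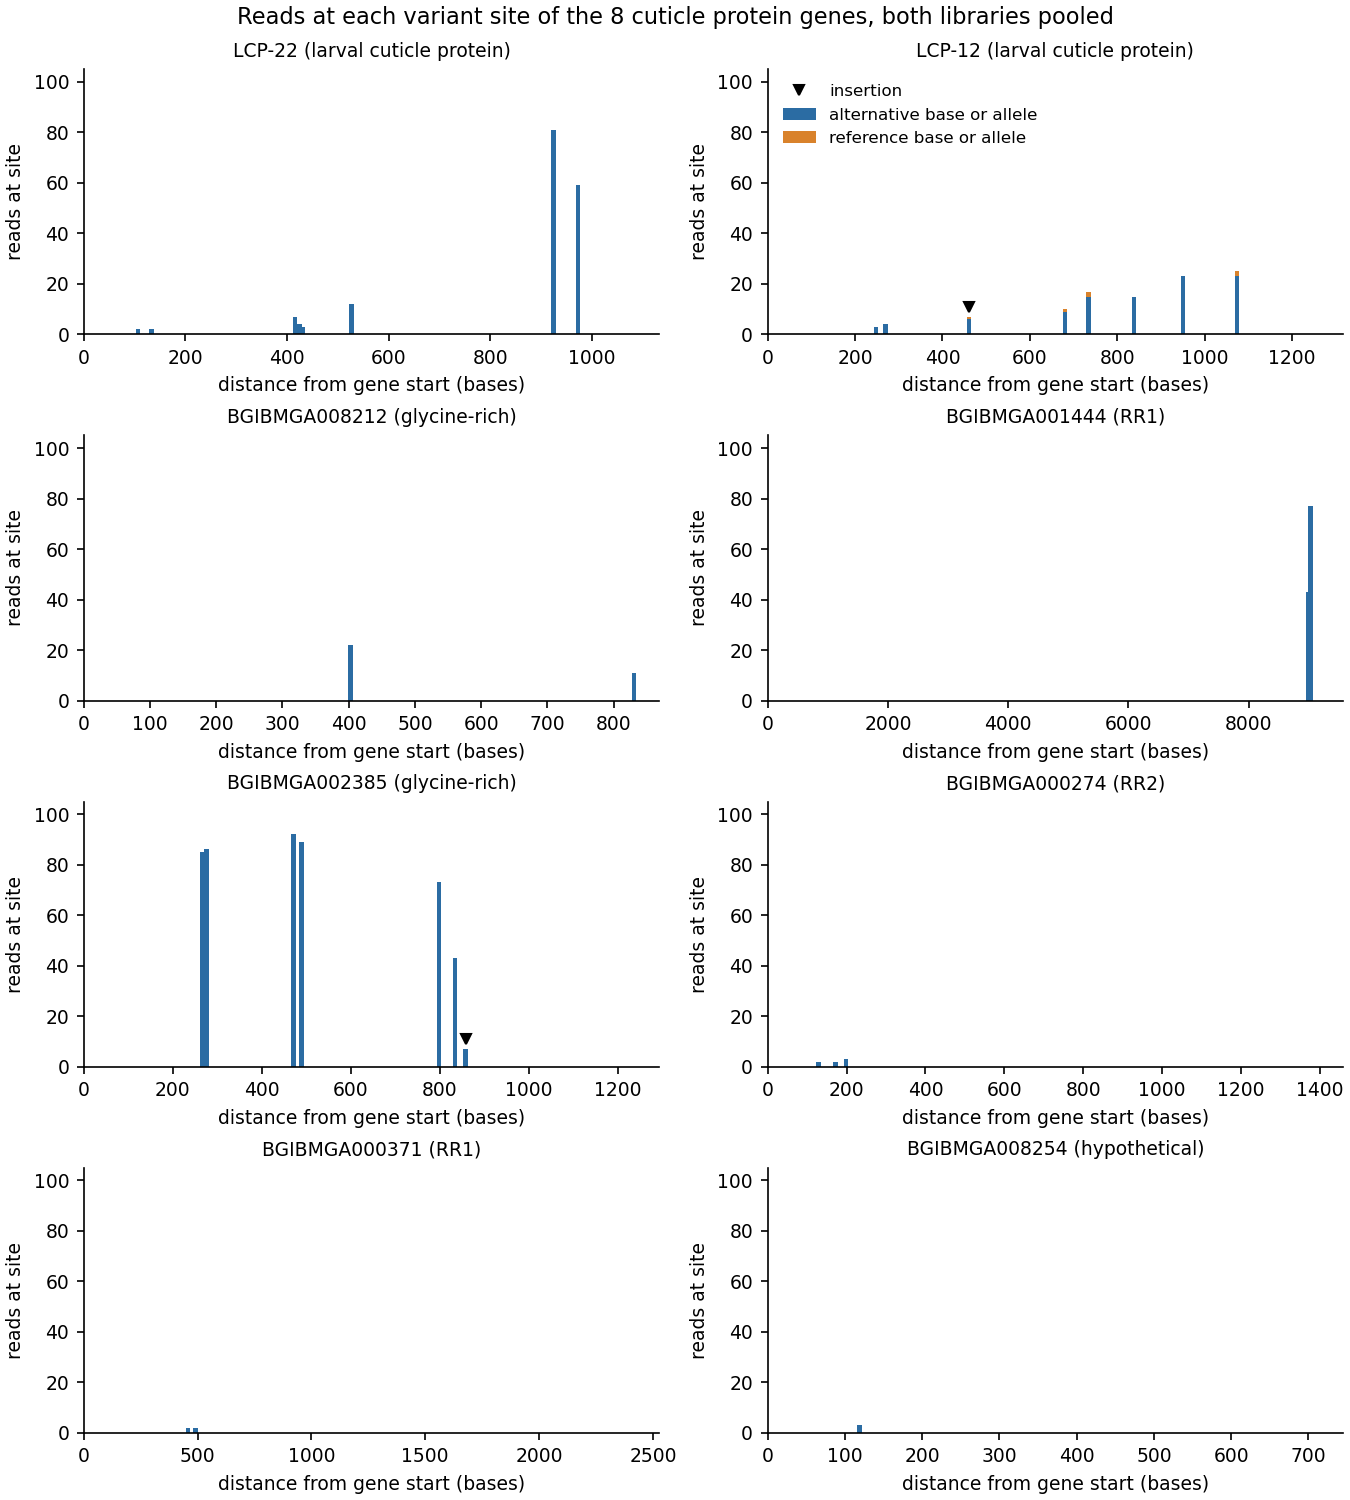
Reads at each variant site (y axis, number of reads in the pooled libraries) against the distance from the listed gene start (x axis, bases), 1 panel for each of the 8 genes, each drawn over its whole span. Reference reads appear only in LCP-12, and the deepest sites are those of BGIBMGA002385 with up to 92 reads.

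The RR1 gene BGIBMGA001444 (Bm_scaf7, 2858712 to 2868281) has the longest span of the 8 genes, 9570 bp, and held G8996A with 43 reads and G9026A with 77 reads. The sites lay 30 bases apart close to the listed end. All reads carried the alternative base, with exact 95% confidence intervals of 91.8% to 100% and 95.3% to 100%. Its 0.209 sites per kb (exact Poisson 95% confidence interval 0.0253 to 0.755) was the lowest density of the 8 genes, and its interval did not reach those of LCP-22, LCP-12 and BGIBMGA002385. The interval treats sites as independent, and the long span may hold introns that RNA reads do not cover. The densities are therefore not directly comparable. The other RR1 gene, BGIBMGA000371 (Bm_scaf18, 555928 to 558455), held A458T and T491C with 2 reads each.

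The RR2 gene BGIBMGA000274 (Bm_scaf18, 3207980 to 3209438) held C130T and G173A with 2 reads each and T200G with 3 reads. The hypothetical cuticle protein BGIBMGA008254 (Bm_scaf94, 165579 to 166323) held T120C with 3 reads. All reads at the sites of BGIBMGA000371, BGIBMGA000274 and BGIBMGA008254 carried the alternative base. At 2 or 3 reads this says little, since the lower limits of the exact 95% confidence intervals were 15.8% and 29.2%. A site with 2 reads could not show the reference base at all, because 2 alternative reads were needed for a listing, and all 7941 listed sites with 2 reads were without reference reads. Of the 33 sites, 6 had 2 reads.

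Across the classes, the 16 sites of the larval cuticle proteins had a median coverage of 8.5 reads, the 9 sites of the glycine-rich proteins 73 reads and the 4 sites of the RR1 proteins 22.5 reads. Each class holds at most 2 genes, and within RR1 the sites of BGIBMGA000371 had 2 reads each while those of BGIBMGA001444 had 43 and 77. In the list of cuticle protein genes used here, the insect cuticle protein annotation is attached to 4 of the 8 genes, LCP-22, LCP-12, BGIBMGA001444 and BGIBMGA000371. It is not attached to BGIBMGA000274, which is named as RR2. Transitions made up 20 of the 31 single-base variants (64.5%), against 66.6% of the 45439 single-base variants with a single alternative base in all genes.

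Both alleles were taken to be present at a site when 20% to 80% of its reads carried the alternative one. No site of the 8 genes did so, 0 of 33, and 0 of the 18 sites covered by at least 10 reads. In all genes both alleles were present at 13.2% of the listed sites and at 21.1% of the 18193 sites covered by at least 10 reads. In the other 72 cuticle protein genes with sites they were present at 68 of 175 sites covered by at least 10 reads (38.9%). These 68 sites lay in 8 genes, and 52 of them in BGIBMGA010500 (30 sites) and BGIBMGA000388 (22 sites). Sites of a gene share reads and alleles, so the shares of sites are given without a test. The 18 sites of the 8 genes lay in only 5 genes. Counted by gene, at least 1 listed site with both alleles was found in 22.9% of all genes. It was found in 14 of the other 72 cuticle protein genes (19.4%) and in 0 of the 8. At such shares, 0 of only 8 genes does not set the 8 apart. The 8 genes were also named for unequal RPKM between the pooled libraries. Where most reads come from 1 library, an allele that differs between the strains can hardly reach 20% to 80%. The shares are thus not independent of the choice of the genes, and the part of this was not tested.

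**Figure D2:**
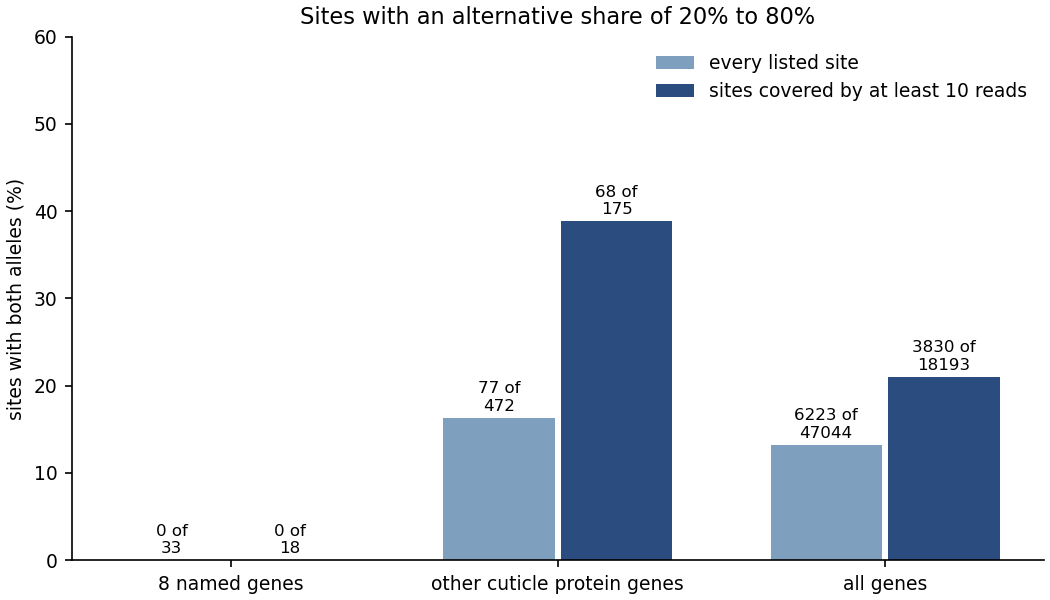
Percent of sites with an alternative share of 20% to 80% (y axis) in the 8 genes, in the other 72 cuticle protein genes with sites and in all genes, for every listed site and for sites covered by at least 10 reads. The numbers above the bars are sites with both alleles of all sites, 0 of 33 and 0 of 18 in the 8 genes.

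At least 1 reference read was counted in 1 of the 8 genes (LCP-12), while this was so for 26.8% of all genes, and at 15.1% of all sites. The number of sites matters for this measure, and so may the unequal RPKM for which the 8 genes were named. Among the 241 genes with exactly 8 sites, as in LCP-22 and LCP-12, 165 (68.5%) had no reference read at any site, and among the 309 genes with 7 sites, as in BGIBMGA002385, 217 (70.2%) had none. Reference reads together with an alternative share over 80% occurred at 554 of the 47044 sites (1.18%), and 20 of the 6641 genes, LCP-12 among them, held 4 or more such sites. The limit of 4 is the number of such sites in LCP-12. Genes with fewer than 4 sites could not reach it, and 1436, 1019 and 633 genes had 1, 2 and 3 sites. The share among genes with as many sites as LCP-12 was not computed.

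Neighbouring sites of the same gene, both covered by at least 10 reads, were compared with a two-sided Fisher's exact test, and Benjamini-Hochberg adjusted p-values were computed over all 14568 such pairs. The alternative shares of neighbouring sites differed in 1223 pairs, which is 8.4% of the pairs in all genes. None of the 13 pairs in the 8 genes differed, and none had an unadjusted p under 0.05. The smallest was p = 0.486 by the exact test, between T735G and T839A of LCP-12, at 88.2% of 17 reads and 100% of 15 reads. The 13 pairs were 5 in BGIBMGA002385, 4 in LCP-12, 2 in LCP-22 and 1 each in BGIBMGA001444 and BGIBMGA008212. Both sites were at 100% in all pairs outside LCP-12 and in the pair of T839A and C951G. Those pairs could not have differed, and they repeat the absence of reference reads given above. Only the remaining pairs of LCP-12 could differ, and at its coverage only large differences could have been found. No pair could be formed in BGIBMGA000371, BGIBMGA000274 and BGIBMGA008254.

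The position of the 8 genes on the scaffolds was compared with the nearest genes with sites, up to 5 on each side. LCP-22, BGIBMGA000371 and BGIBMGA000274 lay on Bm_scaf18 among other cuticle protein genes, since all 10 flanking genes of each were on the list of cuticle protein genes. LCP-22 lay 53.3 kb from BGIBMGA000371. Its nearest neighbours were BGIBMGA000333, 7469 bp to the left, with 8 sites and a median coverage of 51 reads, and BGIBMGA000331, 9263 bp to the right, with 8 sites and a median coverage of 5 reads. These 3 adjacent genes had 7.06 (LCP-22), 5.85 and 5.61 sites per kb. In the 10 genes flanking LCP-22, 80 of 81 sites were without reference reads and none had both alleles. In the 10 genes flanking BGIBMGA000274 all 53 sites were without reference reads, and its nearest neighbours were BGIBMGA000273 (5280 bp, 6 sites) and BGIBMGA000275 (20888 bp, 3 sites). Most of these flanking genes were shallow. Their median coverages ranged from 2 to 51 reads around LCP-22 and from 2 to 8 around BGIBMGA000274, with a median of 3 in both. Sites with so few reads say little about reference reads, and a site with 2 reads could show none. The nearest to BGIBMGA000371 was BGIBMGA000336 (26048 bp) with 25 sites, and on the other side BGIBMGA000333 (44421 bp). On Bm_scaf18 as a whole, 5.36% of 877 sites had both alleles.

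On Bm_scaf14, BGIBMGA002385 and LCP-12 lay 706 kb apart with 14 genes with sites between them. Both alleles were present at 14 of 46 sites (30.4%) in the 10 genes flanking BGIBMGA002385 and at 30 of 94 sites (31.9%) in the 7 genes flanking LCP-12, all 7 of which had reference reads. Of the 14 sites, 6 lay in BGIBMGA002540. With up to 3 or 10 flanking genes on each side the share was 17.9% or 20.6% around BGIBMGA002385. Around LCP-12 it was 34.6% or 33.6%. On Bm_scaf14 as a whole, 13.8% of 682 sites had both alleles. The nearest neighbours of BGIBMGA002385 were the cuticle protein gene BGIBMGA002386 (37193 bp) with 3 sites and a median coverage of 2 reads and BGIBMGA002532 (119782 bp) with 4 sites and a median alternative share of 61.1%. Those of LCP-12 were BGIBMGA002547 (80029 bp) with 21 sites, 5 of them with both alleles, and BGIBMGA002551 (690691 bp), where 8 of 9 sites had both alleles and the median alternative share was 50.0%.

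BGIBMGA008212 lay 3791 bp from the cuticle protein gene BGIBMGA008213 on Bm_scaf254. All 7 sites of BGIBMGA008213 had both alleles, with a median alternative share of 38.1% and a median coverage of 63 reads, whereas both sites of BGIBMGA008212 were at 100%. On its other side BGIBMGA008207 (5817 bp), also a cuticle protein gene, held 3 sites at a median of 100%. The genes around BGIBMGA001444 on Bm_scaf7 were far apart and none was on the cuticle protein list. The nearest were BGIBMGA001525 (34129 bp, 3 sites) and BGIBMGA001528 (218808 bp, 6 sites), and 1 of the 47 sites in its 10 flanking genes had both alleles. Around BGIBMGA008254 the nearest were BGIBMGA008253 (10522 bp, 9 sites) and BGIBMGA008255 (50924 bp, 3 sites), and 1 of 46 sites in the 9 flanking genes had both alleles.

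Along each scaffold, consecutive sites covered by at least 10 reads that belonged to different genes were compared in the same way, with p-values adjusted over all 3372 such pairs on all scaffolds. Genes without a site of that coverage were passed over. This comparison was added once the shares above were known, so it is not independent evidence of them, and its p-values cover the counting error of reads that may not be independent molecules. The alternative shares differed in 17.5% of these pairs. In the 8 genes 4 of 10 pairs differed. The compared sites of the named genes were all at 90% to 100%, so a difference could hardly take the other direction. BGIBMGA002385 differed from the site of BGIBMGA002526 on the left, beyond the shallow BGIBMGA002386, which had 30% in 20 reads against 100% in 85 reads (adjusted p = 5.48e-11, Fisher's exact test). BGIBMGA002526 as a whole had a median alternative share of 100% over 17 sites, of which 6 had reference reads and 3 had both alleles. On the right, BGIBMGA002385 differed from BGIBMGA002532, with 18.2% in 11 reads against 100% in 43 reads (adjusted p = 3.39e-07, Fisher's exact test). Of the 4 sites of BGIBMGA002532, 2 had reference reads. LCP-12 differed from BGIBMGA002551, with 12.5% in 16 reads against 92.0% in 25 reads (adjusted p = 7.78e-06, Fisher's exact test). BGIBMGA008212 differed from BGIBMGA008213, with 38.5% in 39 reads against 100% in 11 reads at a distance of 4026 bp (adjusted p = 0.00231, Fisher's exact test). The compared sites of the first 3 of these pairs lay 117377, 126488 and 691321 bp apart. The other 6 pairs had adjusted p-values of 1, among them both neighbours of LCP-22 and of BGIBMGA001444, where every read on both sides carried the alternative base. The share at a site also depends on how many of the gene's reads came from each library, whose part in these differences was not tested.

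**Figure D3:**
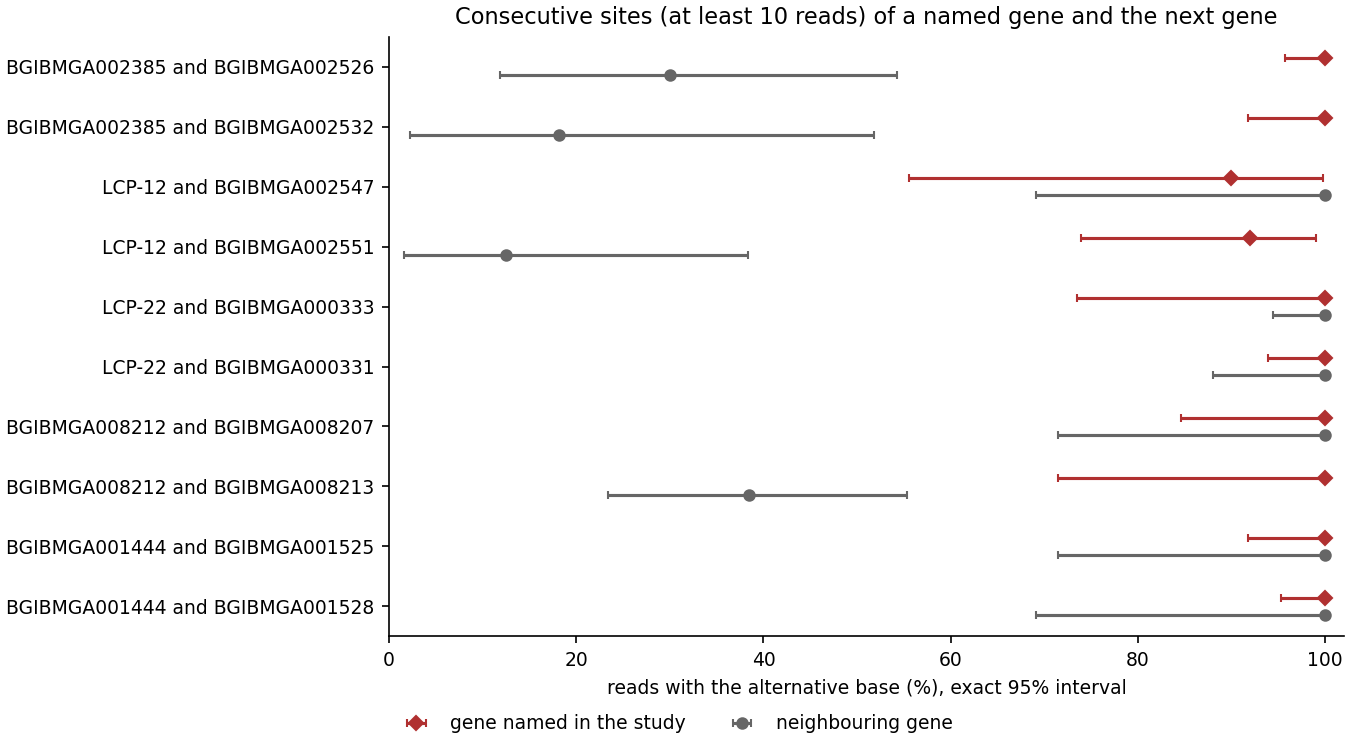
Alternative share (x axis, percent of reads) at consecutive sites covered by at least 10 reads of a named gene (red) and of the next gene with such a site (grey), with exact 95% confidence intervals that cover counting error, for 10 pairs. The shares are apart in 4 pairs, both pairs of BGIBMGA002385, LCP-12 with BGIBMGA002551 and BGIBMGA008212 with BGIBMGA008213.

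The density of sites was higher than the median of the flanking genes in 4 of the 8 genes. LCP-12 had a higher density than all 7 flanking genes, whose densities ranged from 0.656 to 5.14 sites per kb, and LCP-22 and BGIBMGA002385 exceeded 9 of 10 each. BGIBMGA008212 exceeded 5 of 6 flanking genes. BGIBMGA008254, BGIBMGA000274, BGIBMGA000371 and BGIBMGA001444 exceeded 4 of 9, 5 of 10, 3 of 10 and 2 of 10. With up to 10 genes on each side LCP-12 exceeded 11 of 12 flanking genes, the densest of which had 9.80 sites per kb. The median density was 2.18 sites per kb in the 8 genes, 1.71 in the other 72 cuticle protein genes with sites and 0.842 in all genes. The listed spans also differed, with medians of 1305, 1870 and 5440 bp.

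The median coverage was higher than in all 10 flanking genes for BGIBMGA002385 (85 reads against 2 to 24) and BGIBMGA001444 (60 reads against 2 to 53). LCP-22, LCP-12 and BGIBMGA008212 lay within the range of their flanking genes, above 8 of 10, 5 of 7 and 4 of 6. BGIBMGA000274 and BGIBMGA000371, with a median of 2 reads each, exceeded none of 10, and BGIBMGA008254, with 3 reads, exceeded 2 of 9. The coverage counts reads of the same libraries whose RPKM values served to choose the 8 genes, so it is not independent of that choice. The median of BGIBMGA001444 rests on 2 sites 30 bases apart, which may share reads. The density and the coverage were not tested, because each gene has 1 value in the pooled libraries.

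**Figure D4:**
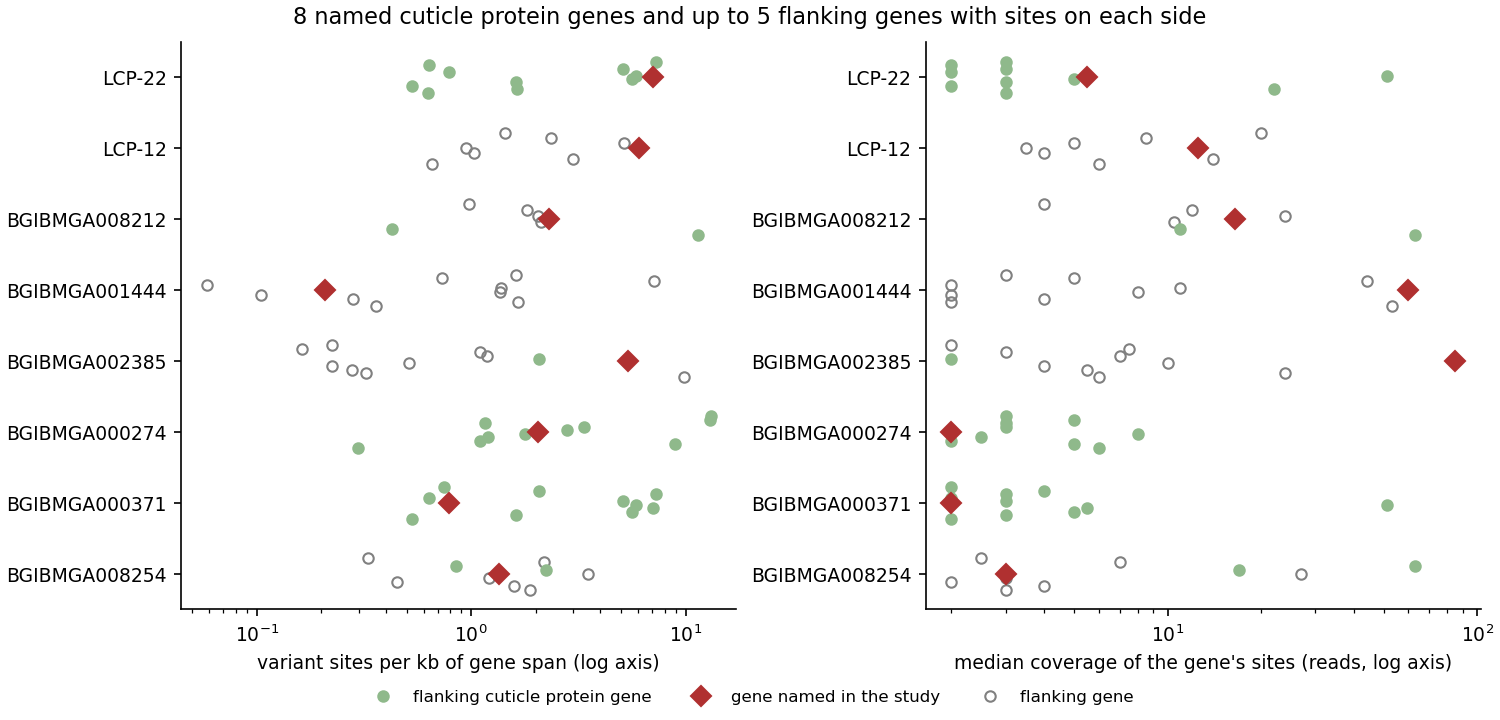
Variant sites per kb of gene span (left, log axis) and median coverage of a gene's sites in reads (right, log axis) for the 8 genes (red diamonds) and up to 5 flanking genes with sites on each side (green where the gene is on the cuticle protein list). BGIBMGA002385 at 85 reads and BGIBMGA001444 at 60 reads lie above all their flanking genes in coverage, and LCP-12 at 6.07 sites per kb lies above its 7 flanking genes in density.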

How the data were processed

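Epidermis RNA of 932VR and q-lp was sequenced by the authors on an Illumina HiSeq system and aligned to the SilkDB silkworm genome. The variant caller, its filters and the version of the annotation are not given in the sources used here. The deposited tables give, per site, a count of all reads (the coverage) and the percent of them that carried the alternative base; numbers of reference and alternative reads followed from both. That the 2 libraries are pooled in these columns was inferred from the tables, which name both strains and give 1 value per site. The total depth is not in the tables. All values are single pooled values without replicates.

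The tables of single-base variants and of indels were joined (Python 3.11.15, pandas 2.3.3, scipy 1.17.1, matplotlib 3.10.9). A position in overlapping genes is listed for each, which repeated 43 entries. An empty line of the indel table was passed over. Sites per kb are sites over the listed span of the gene, with exact Poisson intervals, and alternative shares have Clopper-Pearson intervals, both at 95%. The pair tests used a coverage of at least 10 reads and a threshold of 0.05. The comparison of sites within a gene was tested on simulated data, and the comparison between neighbouring genes was not. The list of 208 cuticle protein genes is that of the study, and 80 of them had sites. The 8 genes and the lists were chosen with earlier results of these data known. Named beside the 8 genes are the nearest gene with sites on each side and the other 5 cuticle protein genes of the same tables of the study; BGIBMGA002526, BGIBMGA010500 and BGIBMGA000388 were named after their values were seen. Alternatives were other minimum coverages, single-base variants only, other limits for both alleles, the Bonferroni adjustment, pairs more than 200 bases apart and 3 or 10 flanking genes on each side.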

Additional observations from a re-analysis of the deposited data

How the results depend on the processing

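The 33 sites of the 8 genes became 21, 18 and 13 at a coverage of at least 5, 10 and 20 reads, and 5 of the 8 genes kept sites at each of these minimums. BGIBMGA000371, BGIBMGA000274 and BGIBMGA008254 therefore rest on sites under 5 reads. With both alleles taken as 10% to 90%, 3 sites (all in LCP-12) had both alleles in place of 0, while limits of 30% to 70% or a coverage of at least 10 or 20 reads left the number at 0. In all genes the share of sites with both alleles moved from 13.2% to 21.1% and 21.6% at a coverage of at least 10 and 20 reads, and in cuticle protein genes from 15.2% to 35.2% at a coverage of at least 10. No pair of neighbouring sites within the 8 genes was called with a coverage of at least 5 or 20 reads, single-base variants only, the Bonferroni adjustment or pairs more than 200 bases apart. In all genes the percent of pairs called moved from 8.4% to 4.83% at a coverage of at least 5 reads and to 3.66% with the Bonferroni adjustment. The comparison of nearest sites of neighbouring genes, added after the data had been seen, called 4 pairs of the 8 genes and 17.5% of all pairs. With 3 or 10 flanking genes on each side, 5 and 6 of the 8 genes had more sites per kb than the median flanking gene, in place of 4, and 4 and 5 had a higher median coverage, in place of 5. Coverage sets the precision of every share, and the depth of each library at these sites is unknown. No paired analysis was possible because each strain has 1 library and the tables pool both.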
